A study of Mus musculus with 70 samples.

Results

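The collagen genes examined here were all gene symbols of the form Col, a number, a and a number that had at least 10 counts in 2 or more of the 70 libraries. The pattern matched 44 of the 55011 symbols in the gene count table, and 43 passed the count rule. Col25a1 was left out, since its highest count in any library was 9. Just inside the rule lay Col9a1, with at least 10 counts in 3 libraries and a highest count of 13, and Col2a1, with 4 libraries and a highest count of 19. By the class of protein they encode, the 43 genes comprised 11 fibrillar chains, 6 basement membrane chains, 6 beaded filament chains, 9 fibril-associated chains, 3 short-chain network chains, 3 transmembrane chains, 2 multiplexins, the anchoring fibril chain Col7a1, and Col26a1 and Col28a1.

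Collagens are secreted proteins in which 3 chains wind into a triple helix. The fibrillar chains Col1a1, Col1a2 and Col3a1 build the load-bearing fibrils of muscle connective tissue, and the Col5 chains join those fibrils and govern their diameter. Col4a1 and Col4a2 form the network of the basement membrane around myofibres and vessels, and Col6a1, Col6a2 and Col6a3 form the beaded filaments that link that membrane to the interstitial matrix. Fibroblast-like stromal cells are the main source of interstitial collagen in muscle, and an excess of it is the hallmark of fibrosis.

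The study profiled mouse muscle stromal cells, called MmSCs in the labels, and their neighbours by RNA-seq of sorted cells from hindlimb muscle, with 1000 cells per library. Uninjured C57BL/6J mice received Il-17A, TNFa, Il-1b and Osm (Oncostatin M) together by intraperitoneal injection, here called the mix, for 2, 4 or 8 h, or 1 cytokine, or Osm with 1 of the other three, for 2 h, or PBS for a time the labels do not give. MmSCs of these mice were sequenced in 2 libraries a group, with 1 library at 4 h of the mix. From C57BL/6J mice without injury and 1 day after cardiotoxin, a venom that destroys myofibres, CD31+ cells (endothelial), CD45+ cells (leukocytes), MmSCs and muscle stem cells (MuSCs) were sequenced in 3 libraries a group. Smaller sets held Thy1.1+ and Thy1.1- MmSCs of Il6RD reporter mice 12 h after cardiotoxin (3 libraries each) and MmSCs of Il1b-KO mice (3 libraries) and Il1b-WT littermates (2 libraries) 1 day after cardiotoxin. Whole tibialis anterior muscle of C57BL/6J mice came from day 7 after cardiotoxin with anti-Cxcl5 or IgG given intraperitoneally (3 libraries each). MmSCs of uninjured DMDmdx mice, which lack dystrophin, were taken at 2.5 and 7 weeks of age (3 libraries each) and at 12.5 weeks (2 libraries, titled as 12 weeks). Wild-type MmSCs of matched age were not analysed here, so the mdx comparisons are between ages, and the labels give no age for the other mice.

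Library totals ran from 2252373 to 8408842 counts. Levels are CPM, the usual counts scaled to a common library total, with TMM factors within each of the 6 experiments, and CPM levels of different experiments were not compared. Differences are log2 fold changes ± SE from edgeR's quasi-likelihood test, and a gene was called at a Benjamini-Hochberg adjusted p under 0.05 over all genes tested in its experiment. The labels number the libraries but do not tie them to animals, so p-values measure the spread between these libraries. The leading markers matched the labels at rest: Pdgfra, a stromal receptor, lay between 537 and 618 CPM in MmSCs and at 3.03 CPM or less elsewhere, while Pecam1, Ptprc and Pax7 were highest in CD31+ cells, CD45+ cells and MuSCs. In the Il1b-KO libraries Il1b had 0, 0 and 1 counts against 2 and 5 in the Il1b-WT libraries, too few to check the genotype. Of the 43 collagen genes, 27 overlap another annotated gene, and the sources used here do not give the strand setting of the counting, so that reads of such pairs cannot be told apart. In sorted pools and in whole muscle, fewer cells of a type and less RNA per cell cannot be told apart either.

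Upstream sequences of 4 genes are shown because the results turn on these genes: Col3a1, the most abundant chain, Col5a1 and Col15a1, which were lower in MmSCs after injury and at 8 h of the mix, and Col27a1, which was higher at 2 h and 4 h. Each is the 250 bases before the RefSeq transcription start (RefSeq promoter table, GRCm38.p6), read on the plus strand, with matches to the searched motifs in capitals. The windows are chr1:45311288-45311537 for Col3a1, chr2:27886175-27886424 for Col5a1, chr4:47207762-47208011 for Col15a1 and chr4:63215162-63215411 for Col27a1, and none holds an annotated exon.
Col3a1: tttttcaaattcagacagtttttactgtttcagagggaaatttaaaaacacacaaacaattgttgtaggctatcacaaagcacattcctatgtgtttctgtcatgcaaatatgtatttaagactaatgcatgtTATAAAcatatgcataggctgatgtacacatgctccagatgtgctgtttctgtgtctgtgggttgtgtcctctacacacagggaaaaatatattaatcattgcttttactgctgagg
Col5a1: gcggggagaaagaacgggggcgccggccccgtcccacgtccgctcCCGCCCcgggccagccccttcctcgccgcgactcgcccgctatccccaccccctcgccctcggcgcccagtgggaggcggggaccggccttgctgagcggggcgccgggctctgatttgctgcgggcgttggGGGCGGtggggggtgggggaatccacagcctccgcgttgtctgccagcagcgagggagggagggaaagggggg
Col15a1: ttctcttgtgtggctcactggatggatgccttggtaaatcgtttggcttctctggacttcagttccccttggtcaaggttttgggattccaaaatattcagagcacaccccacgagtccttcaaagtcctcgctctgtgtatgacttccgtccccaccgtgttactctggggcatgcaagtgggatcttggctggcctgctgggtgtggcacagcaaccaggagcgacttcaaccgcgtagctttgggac
Col27a1: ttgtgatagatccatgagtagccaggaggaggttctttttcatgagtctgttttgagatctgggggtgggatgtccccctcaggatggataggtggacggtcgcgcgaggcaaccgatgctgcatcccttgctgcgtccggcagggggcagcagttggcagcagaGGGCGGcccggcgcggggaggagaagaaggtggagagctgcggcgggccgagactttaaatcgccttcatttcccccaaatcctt
Col3a1 had TATAAA 117 bases before its start. Col5a1 had GGGCGG, the letters of a GC box, on the forward strand 73 bases and on the reverse strand 205 bases before its start, and Col27a1 had it 85 bases before its start. Col15a1 had no match to any of the 4 motifs searched on both strands, which also included the CCAAT box and the AP-1 letters TGANTCA. Over the table's 300-base windows, which add 50 bases after the start, 34 of the 43 genes had an entry. GGGCGG was in 21 of the 34 (61.8%) against 38.2% of the 27025 genes in the table, CCAAT in 12 (35.3% against 41.1%), TATAAA in 5 (14.7% against 15.7%) and TGANTCA in 1 (2.94% against 8.97%). These are letter matches, not measured binding. Col4a1 and Col4a2 start head to head on chromosome 8, at 11312826 on the minus strand and 11312805 on the plus strand, so that their first 22 bases overlap.

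Collagen genes took up very different shares of the transcriptome. Over the 43 genes, the share of all counts in resting MmSCs was 4.53% ± 0.811 (SD, n = 3), against 0.362% in MuSCs, 0.344% in CD31+ cells and 0.00997% in CD45+ cells. One day after cardiotoxin it was 1.33% ± 0.0635 in MmSCs, with every injured library between 1.29% and 1.40% and every resting one between 3.60% and 5.09%. MuSCs went from a range of 0.322% to 0.405% to a range of 0.138% to 0.158%. CD31+ cells went from 0.324% to 0.375% at rest to 0.458% to 0.483% after injury. In the cytokine experiment the share was 8.80% ± 0.707 (SD, n = 2) with PBS, 6.21% ± 1.08 at 2 h of the mix, 4.08% in the single library at 4 h and 4.26% ± 0.396 at 8 h. In mdx MmSCs the share was 11.4%, 14.0% and 10.2% at 2.5, 7 and 12.5 weeks. The Il1b experiment held a second set of MmSCs 1 day after cardiotoxin. There the share was 4.33% and 5.2% in Il1b-WT and 4.05% to 5.69% in Il1b-KO libraries, far above the 1.33% of the first set. It had no resting libraries, and the gap between the 2 sets was not tested.

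**Figure D1:**
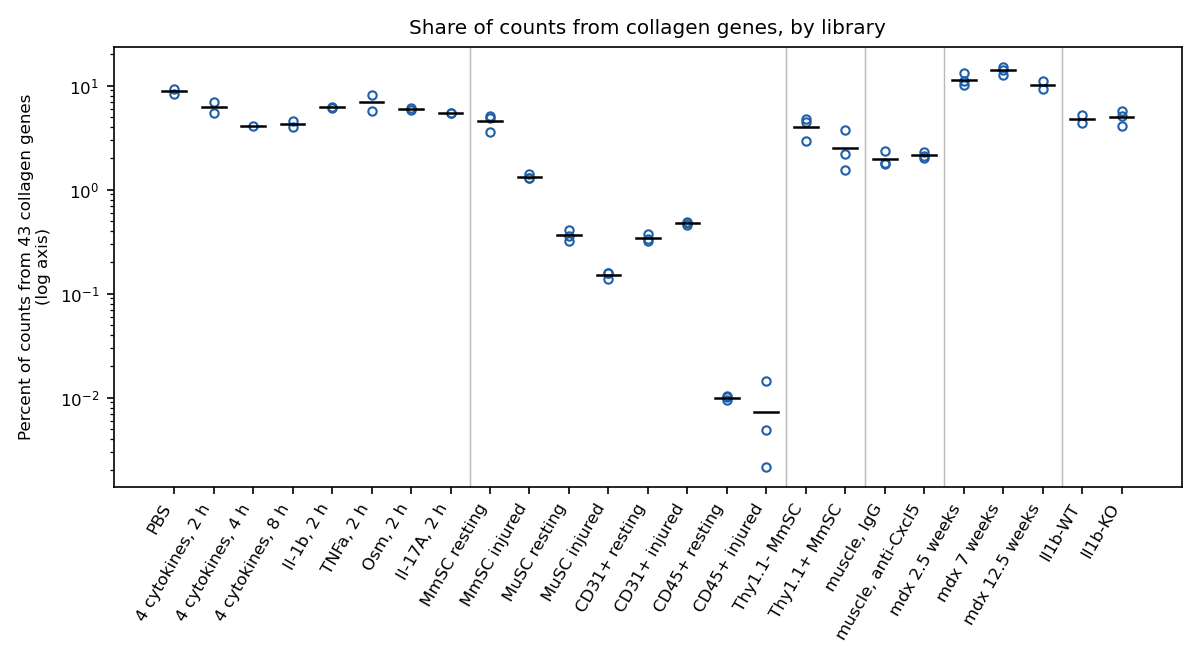
Share of all counts that fell in the 43 collagen genes, in percent on a log axis, with 1 point per library and bars at the group means, for all groups but those given Osm with another cytokine. MmSC groups lie above 1%, whole muscle near 2%, MuSCs and CD31+ cells between 0.1% and 0.5%, and CD45+ cells at 0.0146% or less after injury.

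The mix of chains also differed. Col4a1 and Col4a2 together made up 88.7% of the collagen counts of resting CD31+ cells (range 87.4% to 90.4%), 18.8% of those of MuSCs and 4.29% of those of MmSCs. Col1a1, Col1a2 and Col3a1 together made up 69.7% in MmSCs, 35.0% in MuSCs and 0.414% in CD31+ cells. In MmSCs the basement membrane pair held a larger share after injury (9.77%) and, in the cytokine experiment, from 5.44% with PBS to 14.3% at 8 h of the mix. In mdx MmSCs that pair held 1.55%, 1.11% and 1.91% at the 3 ages, with no wild-type cells of matched age to set beside them.

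The resting compartments rank 4 sorted pools of uninjured muscle by their collagen transcripts, and cells outside these pools were not profiled in this experiment. Among the genes with a mean of at least 1 CPM in some compartment, MmSCs were highest for 27, CD31+ cells for 8, MuSCs for 4 and CD45+ cells for 1. In 23 of the 27 the lowest MmSC library lay above every library of the next compartment. The same ranking was not made over all genes, so these counts alone do not set collagen genes apart. Against CD31+ cells, 21 of the 37 collagen genes tested were higher in MmSCs and 3 lower, where 24% of all genes tested were called higher and 23% lower. The members' median was 2.8 on the log2 scale against -0.06 over all genes. Against MuSCs, 26 were higher and 4 lower (23.4% and 17.3% of all genes), with a median of 2.85. Against CD45+ cells, 27 were higher and 0 lower (28.5% and 28.2% of all genes, 56.7% in either direction), with a median of 6.61.

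Fibrillar chains led the MmSC side. Col3a1 had 22308, 21536 and 12907 CPM in the 3 resting MmSC libraries, 1001, 1075 and 861 in MuSCs, at most 3.29 in CD31+ cells and at most 7.48 in CD45+ cells. Col1a1 had 11089, 11371 and 5813 CPM in MmSCs, 12.8, 6.20 and 24 in MuSCs, and at most 4.58 in the other cells. Thus MuSCs held an appreciable level of Col3a1 with little Col1a1. Pdgfra was at most 0.345 CPM there, but the list of 8 MmSC markers summed to 1170 to 1281 CPM in the same libraries. The origin of the Col3a1 reads was not tested. The fitted difference from MuSCs was 4.27 ± 0.68 for Col3a1 (edgeR adjusted p = 1.94e-05), 9.31 for Col1a1 and 9.39 for Col1a2. From CD31+ cells it was 13.28 ± 1.04 for Col3a1, 12.77 for Col1a1 and 9.98 for Col1a2. In the same comparison all 7 called fibrillar chains of the 8 tested were higher in MmSCs, with Col5a1 at 8.16, Col5a2 at 7.81 and Col5a3 at 9.02.

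All 5 beaded filament chains tested were higher in MmSCs than in MuSCs and in CD45+ cells, and 4 of 5 than in CD31+ cells. Col6a1 had 3406, 3487 and 2826 CPM in MmSCs and 355, 404 and 339 in MuSCs, with at most 4.19 in the other cells. Col6a3, the large partner chain of the same trimer, had 1319, 1370 and 1095 CPM in MmSCs but only 5.31, 0.00 and 0.599 in MuSCs. Its difference from MuSCs was 9.11 on the log2 scale. Per kilobase of exon, the order in MmSCs was Col3a1 (1927 CPM per kb), Col1a1 (1436), Col1a2 (857), Col6a1 (740) and Col6a2 (466). With the length of the longest transcript instead, Col1a2 (1991) stood above Col1a1 (1589), so the order of these chains depends on the length used. In MuSCs the order was Col3a1 (99.7), Col6a1 (83.6), Col4a1 (38.7) and Col4a2 (38.1).

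All 6 basement membrane chains were higher in MmSCs than in MuSCs and in CD45+ cells. Against CD31+ cells 4 were higher, Col4a5 (6.64), Col4a4 (5.07), Col4a3 (3.67) and Col4a6 (3.29), and the 2 major chains did not pass the test. Col4a2 had 1815, 2007 and 1938 CPM in CD31+ cells and 1253, 1137 and 1524 in MmSCs, groups that did not overlap, yet the difference missed the threshold (-0.56 ± 0.23, edgeR adjusted p = 0.0506). Col4a1 had 995, 1035 and 1020 CPM in CD31+ cells and 870, 753 and 1117 in MmSCs, which overlapped (adjusted p = 0.601). Both were lower in MuSCs, where Col4a1 had 302, 317 and 248 CPM. Col8a1, a short-chain collagen of vessel walls, was at 157, 152 and 141 CPM in CD31+ cells and at 174, 203 and 418 in MmSCs (0.82, adjusted p = 0.11). Per kilobase, CD31+ cells ranked Col4a2 (290 CPM per kb), Col4a1 (136), Col8a1 (19.2) and Col15a1 (11.2).

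Several minor collagens were highest outside MmSCs. Col19a1, a fibril-associated chain, had 60.2, 56.5 and 47.9 CPM in MuSCs and 1 library with any read in MmSCs. MuSCs exceeded MmSCs by a ratio of 801 in summed counts (95% counting interval 143 to 31689). Col26a1 had 41.5, 103 and 48.9 CPM in MuSCs and at most 2.51 in MmSCs (-5.63 ± 0.68, edgeR adjusted p = 9.48e-07). Col7a1, the anchoring fibril chain, and Col17a1, a transmembrane collagen of epithelial adhesion, were also higher in MuSCs (-2.48, adjusted p = 0.00694, and -1.92, adjusted p = 0.00705, for MmSCs against MuSCs). The Col7a1 call was lost without MuSC resting replicate 1 (adjusted p = 0.0501). CD31+ cells exceeded MmSCs for Col13a1, a transmembrane collagen (-3.23 ± 0.79, adjusted p = 0.00204), and for Col28a1 (-2.11 ± 0.61, adjusted p = 0.00935). In CD45+ cells Col14a1, a fibril-associated chain that binds fibril surfaces, had 35.2, 26.7 and 26.5 CPM, against 1287, 1121 and 951 in MmSCs. That was above its level in CD31+ cells (at most 3.24 CPM) and MuSCs (at most 1.03 CPM), differences that were not tested.

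**Figure D2:**
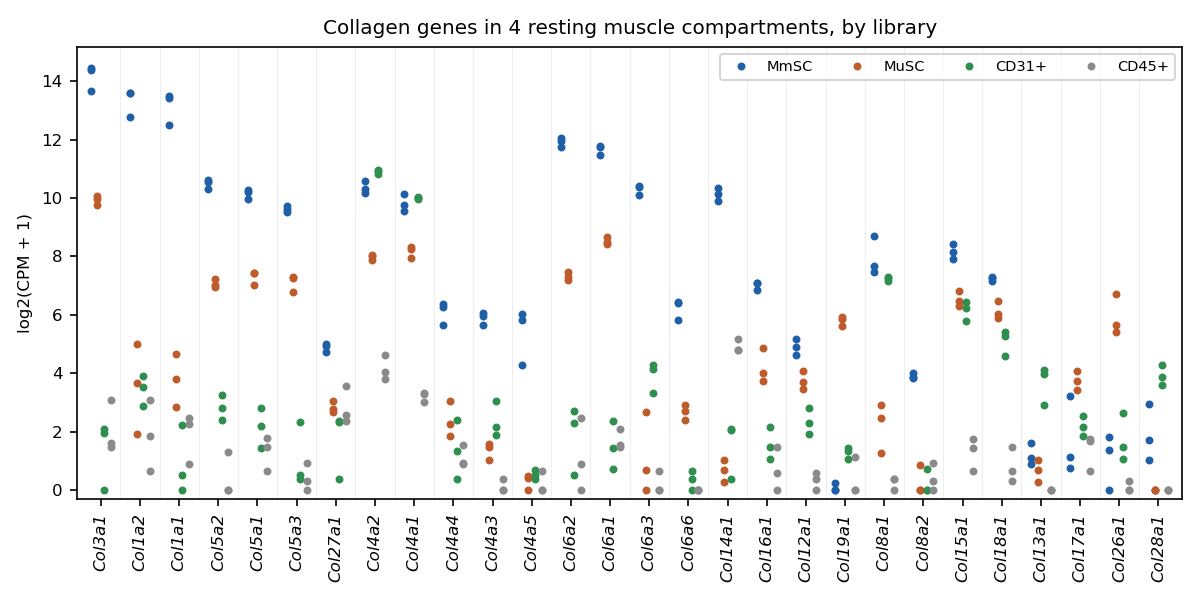
Levels of 28 collagen genes in the 4 resting compartments, as log2(CPM + 1) with 1 point per library (n = 3 each). Fibrillar and beaded filament chains are highest in MmSCs, Col4a1 and Col4a2 are of like order in MmSCs and CD31+ cells, with Col4a2 above in every CD31+ library, and Col19a1 and Col26a1 are highest in MuSCs.

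The injury comparison shows what happened to collagen transcripts 1 day after cardiotoxin, when myofibres have been destroyed and inflammation begins. In MmSCs 21 of the 37 collagen genes tested fell and 2 rose, where 23.6% of all genes fell and 18.2% rose (41.8% in either direction). The members' median was -1.77 against -0.22 over all genes. All 6 basement membrane chains fell (median -2.44), as did 6 of 8 fibrillar chains (-1.63), 4 of 5 beaded filament chains (-1.91) and both multiplexins. Of the 7 fibril-associated chains 2 fell and 1 rose, of the 3 short-chain network chains 1 fell and 1 rose, and the 3 transmembrane chains did not pass the test.

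The abundant fibrillar chains fell together. Col3a1 went from 22308, 21536 and 12907 CPM to 3369, 3886 and 3149 (-2.45 ± 0.62, edgeR adjusted p = 0.003). Col1a1 went from 11089, 11371 and 5813 CPM to 1556, 1992 and 1633 (-2.45 ± 0.63, adjusted p = 0.00315). Col1a2 changed by -2.34 and Col5a1 by -2.01 ± 0.31, and in all 4 genes every injured library lay below every resting one. Col5a3 (-1.25) and Col5a2 (-1.02) also fell. By DESeq2 the Col1a1 call was lost (adjusted p = 0.0817), and Col5a2 was lost without MmSC resting replicate 1 (0.057) or 2 (0.0518).

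A fibril-surface chain, a multiplexin and a filament chain also fell. Their resting libraries lay closer together, in proportion, than those of Col3a1 and Col1a1. Col14a1 went from 1287, 1121 and 951 CPM to 177, 242 and 136 (-2.60 ± 0.29, edgeR adjusted p = 1.84e-07). Col15a1, a multiplexin that joins basement membranes to nearby fibrils, went from 238, 283 and 345 CPM to 52.4, 40.3 and 60.4 (-2.50 ± 0.22, adjusted p = 6.13e-09). Col6a1 went from 3406, 3487 and 2826 CPM to 734, 809 and 757 (-2.08, adjusted p = 0.000433). None of these 3 genes had overlapping groups. The other filament chains called had fitted changes of -3.25 (Col6a6), -1.91 (Col6a2) and -1.14 (Col6a3). Col6a2 and Col6a3 lost their calls by DESeq2 (adjusted p = 0.0924 and 0.26), and Col6a3 also lost it without any single one of the 6 libraries (0.0748 to 0.149).

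Among basement membrane chains the minor ones changed most. Col4a3, the chain best known from the kidney filter, went from 61.1, 66.0 and 49.5 CPM to 3.85, 7.12 and 2.94 (-3.66 ± 0.46, edgeR adjusted p = 1.1e-06). Its neighbour and partner Col4a4 changed by -3.11, Col4a5 by -2.55 and Col4a6 by -2.34, the last lost without MmSC resting replicate 1 or 2 or injured replicate 1 or 3 (adjusted p 0.0539 to 0.0911). The major chains had smaller fitted changes: Col4a1 went from 870, 753 and 1117 CPM to 490, 558 and 570 (-0.76 ± 0.22, adjusted p = 0.0087) and Col4a2 changed by -0.77 ± 0.23. The groups of both did not overlap. Both calls were lost without MmSC resting replicate 3 (-0.44, adjusted p = 0.168, for Col4a1, and 0.138 for Col4a2), without MmSC resting replicate 1 (0.0545 and 0.0586), and with library totals alone as scaling (0.0887 and 0.0926).

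Of the 2 that rose, Col12a1, a fibril-associated chain of loaded tissue, went from 34.6, 28.8 and 23.7 CPM to 50.9, 55.2 and 47.6 (0.81 ± 0.32, edgeR adjusted p = 0.0468). Col8a1 went from 174, 203 and 418 CPM to 744, 387 and 471, groups that overlapped (1.01 ± 0.41, adjusted p = 0.0492). Both calls were borderline. By DESeq2 the adjusted p was 0.0772 for Col12a1 and 0.34 for Col8a1, by upper-quartile scaling 0.0625 and 0.0627. Col12a1 was also lost without MmSC resting replicate 2 or 3 or any injured replicate (adjusted p 0.0568 to 0.114), and Col8a1 without resting replicate 1 or 2 or injured replicate 1 or 3 (0.0683 to 0.244). Col27a1, a fibrillar chain of cartilage, had non-overlapping groups, 25.4, 29.2 and 30.7 CPM against 54.4, 57.8 and 48.1, but did not pass the test (0.91, adjusted p = 0.0651).

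The proteins that process and bind collagen did not move as a block. Of 33 biosynthesis genes (hydroxylases, chaperones, propeptide proteases and cross-linking enzymes), 11 fell and 4 rose in injured MmSCs, with a median of -0.19 against -0.22 over all genes, of which 23.6% fell and 18.2% rose. Pcolce2, an enhancer of procollagen cleavage, changed by -2.67, the collagen glycosyltransferase Colgalt2 by -2.50 and the cross-linking enzyme Loxl2 by -1.91, while the lysyl hydroxylase Plod3 changed by 1.03. Of 8 fibril-binding proteoglycans 4 fell: Fmod (-3.63), Kera (-3.43), Aspn (-2.98) and Ogn (-2.61). Of the collagen receptors 3 fell: Itga2 (-3.45), Itga11 (-3.12) and Itga1 (-1.92). Markers of the compartment moved too: 5 of 8 MmSC markers fell, and their summed level went from 14466 to 18580 CPM at rest to 5253 to 6809 CPM after injury. The myofibre sum went from 133 to 384 CPM to 2.71 to 13.6 CPM (6 of 6 lower) and the Schwann sum from 1584 to 1757 CPM to 616 to 630 CPM (2 of 3 lower). Of the tenocyte list, which shares Fmod with the proteoglycans, 3 of 5 were lower (Comp, Fmod and Tnmd), with a median of -2.81. The endothelial sum went from 97.2 to 120 CPM to 12.5 to 19.1 CPM (1 of 8 lower and 1 higher), with Cdh5 at most 0.228 CPM at rest. The part of these shifts in the collagen result was not tested.

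**Figure D3:**
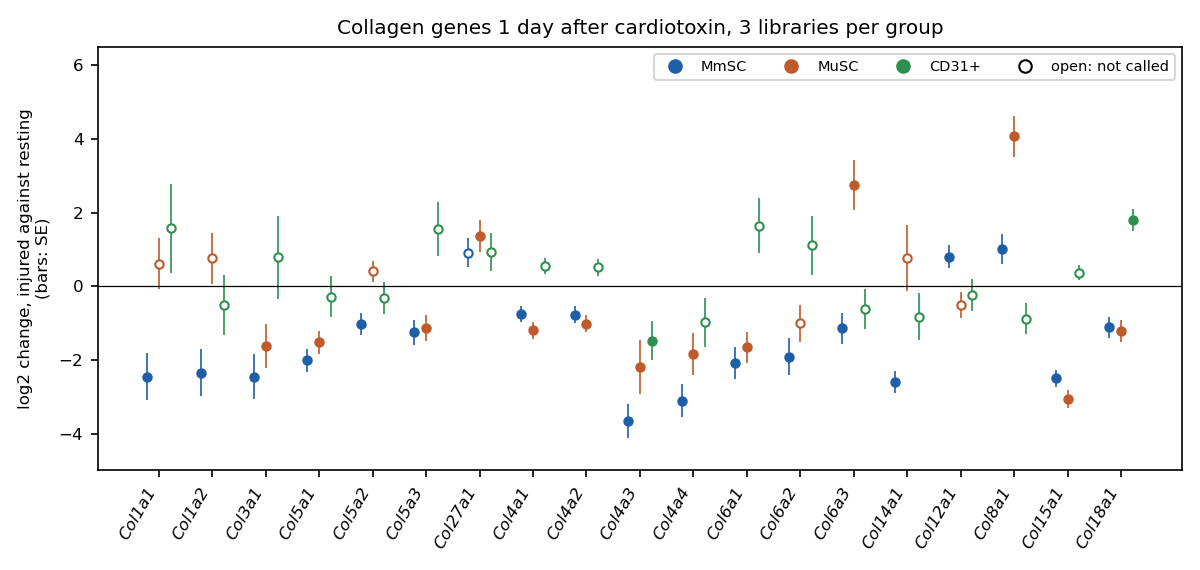
Fitted log2 change 1 day after cardiotoxin against rest for 19 collagen genes in MmSCs, MuSCs and CD31+ cells, with bars of 1 SE, filled points for called genes and open ones for the others (n = 3 libraries a group). MmSC points lie mostly below 0, Col8a1 stands above 0 in MmSCs and MuSCs, and Col18a1 stands above 0 in CD31+ cells.

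In MuSCs, too, most of the collagen genes called had fallen, and a few had risen. Of 37 genes tested 13 fell and 4 rose, against 17.4% and 21.4% of all genes (38.8% in either direction), with a median of -1.0 against -0.04 over all genes. Col15a1 went from 87.0, 112 and 78.0 CPM to 12.3, 10.8 and 10.2 (-3.05 ± 0.24, edgeR adjusted p = 1.09e-09). Col4a1 went from 302, 317 and 248 CPM to 113, 125 and 141 (-1.19 ± 0.23), and Col4a2 changed by -1.01. In none of these did the groups overlap. Col3a1 went from 1001, 1075 and 861 CPM to 329, 284 and 340 (-1.62 ± 0.61, adjusted p = 0.0384), but that call was lost by DESeq2 (0.19) and without any 1 of the 6 libraries (0.0583 to 0.109). Col6a1 changed by -1.66 (DESeq2 adjusted p = 0.0543) and Col5a1 by -1.52. The count of 17 called genes fell to 11 without MuSC resting replicate 1 or MuSC injured replicate 1.

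Col8a1 was the clearest gain in MuSCs, from 1.38, 6.55 and 4.59 CPM to 47.0, 84.5 and 64.4 (4.07 ± 0.56, edgeR adjusted p = 4.7e-06). Col6a3 went from 5.31, 0.00 and 0.599 CPM to 3.65, 24.1 and 18.3 (2.75, adjusted p = 0.0023) and Col13a1 changed by 2.88, both with overlapping groups. Col13a1 lost the call without MuSC resting replicate 1 or 3 or injured replicate 1 (adjusted p 0.0509 to 0.108). Col27a1 went from 5.90, 7.24 and 5.39 CPM to 8.98, 23.9 and 14.2 (1.36 ± 0.44, adjusted p = 0.0178). The Col27a1 call was lost without MuSC resting replicate 1 (0.0557) or 3 (0.0653) or injured replicate 2 (0.129). The MuSC-enriched Col19a1 (54.9 to 40.7 CPM on average), Col26a1 (64.5 to 46.6) and Col17a1 (12.7 to 21.1) did not pass the test. Biosynthesis genes went up more often than down here, 10 against 4 of 33 (21.4% and 17.4% of all genes), with Plod3 at 0.91, the prolyl isomerase Ppib at 0.71 and the propeptide protease Adamts14 at 1.66. The MmSC marker sum in MuSCs went from 1170 to 1281 CPM to 396 to 592 CPM, but its genes went both ways: 3 of 8 fell (Dpp4, Dpt and Cd34) and 3 rose (Pdgfra, Ly6a and Lum), with a list median of 0.75. The part of these shifts in the collagen changes was not tested.

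In CD31+ cells 1 collagen gene rose and 3 fell of 37 tested (14.2% and 9.35% of all genes), with a median of -0.32. Col18a1, the multiplexin that contains endostatin, went from 38.1, 41.3 and 23.1 CPM to 141, 117 and 101 (1.81 ± 0.30, edgeR adjusted p = 9.6e-05). Col4a1 went from 995, 1035 and 1020 CPM to 1544, 1545 and 1388 and Col4a2 from 1815, 2007 and 1938 to 2864, 2699 and 2679. Every injured library was above every resting one in these 3 genes, but Col4a1 (0.55 ± 0.22, adjusted p = 0.0771) and Col4a2 (0.52 ± 0.23, adjusted p = 0.11) did not pass the test. Col28a1 went from 18.4, 13.5 and 11.1 CPM to 3.45, 4.15 and 2.91 (-2.03, adjusted p = 0.0217). Col28a1, Col26a1 (-3.09) and Col4a3 (-1.48) each lost the call without CD31+ injured replicate 1 or 2. Col28a1 also lost it without resting replicate 1 or injured replicate 3, Col26a1 without resting replicate 2 and Col4a3 without resting replicate 1 (adjusted p 0.0524 to 0.355 over these). Among biosynthesis genes 8 rose and 3 fell of 33 (14.2% and 9.35% of all genes), with Fkbp10 at 1.67, the collagen chaperone Serpinh1 at 1.1, Colgalt1 at 0.89 and Plod3 at 0.88. The leukocyte marker sum in CD31+ cells reached 11.5 to 381 CPM after injury, and its part was not tested.

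CD45+ cells had little collagen RNA at either time. Of 37 genes 1 rose and 2 fell (15.9% and 18.7% of all genes). Col14a1 went from 35.2, 26.7 and 26.5 CPM to 1.03, 0.499 and 1.66 (-4.75 ± 0.49, edgeR adjusted p = 1.89e-07), so all 3 injured libraries were far below the resting ones. Col27a1 went from 10.9, 4.11 and 4.95 CPM to 1.55, 2.74 and 0.95 (-1.94, adjusted p = 0.011), a call lost without CD45+ resting replicate 1 (0.127) or injured replicate 3 (0.0643). Col15a1 was called higher (1.34, adjusted p = 0.0231), lost without CD45+ resting replicate 2 (0.106) or injured replicate 3 (0.14). That injured replicate 3 stood apart in stromal chains: Col3a1 was 0.516, 0.249 and 29.7 CPM and Col6a1 0.258, 0.249 and 9.98 CPM in the 3 injured libraries.

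Whether the response differed between compartments was tested as an interaction. Against MuSCs, 7 of 37 genes had a lower response in MmSCs and 0 a higher one (5.62% and 2.02% of all genes, 7.64% in either direction). Col6a3 (-3.89, edgeR adjusted p = 0.00308) and Col8a1 (-3.05, adjusted p = 0.00788) held their calls without any single library, though Col8a1 had an adjusted p of 0.058 by DESeq2. Both were low in resting MuSCs, with 27, 0 and 3 counts of Col6a3 and 7, 19 and 23 of Col8a1. The sizes of these differences are therefore uncertain. Against CD31+ cells, 10 of 37 genes had a lower response in MmSCs and Col8a1 a higher one (7.71% and 4.78% of all genes). Col15a1 (-2.86, adjusted p = 2e-06), Col18a1 (-2.92, adjusted p = 5.4e-05) and Col6a1 (-3.73, adjusted p = 0.00456) held without any single library. Col6a1 was low in CD31+ cells, with 3, 6 and 14 counts at rest and 12, 58 and 41 after injury, so the size of its difference is uncertain. For the basement membrane pair, Col4a1 (-1.31, adjusted p = 0.00747) and Col4a2 (-1.29, adjusted p = 0.0103), the call was lost only without MmSC resting replicate 3 (-0.99, adjusted p = 0.0527, and -1.01, adjusted p = 0.0598).

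The cytokine mix asks how resting MmSCs respond to inflammatory signals without injury. All comparisons with PBS share the same 2 PBS libraries, so they are not independent of each other. At 2 h 8 of 38 collagen genes tested were higher and 0 lower than with PBS (20.5% and 18% of all genes), with a median of 0.25 against -0.06 over all genes. At 4 h there was 1 library, which the fit assumes to vary like those of the other groups, so that its calls have no spread of their own. There 4 were higher and 15 lower (19.6% and 16.8%), with a median of -0.69. At 8 h 1 was higher and 19 lower (15.6% and 12.9%), with a median of -0.98 against 0.07 over all genes. From 2 h to 8 h 25 genes fell and 0 rose (18.7% and 16.6% of all genes), with a median of -1.08. The 2 h split depends on scaling: with library totals alone 2 were higher and 7 lower, and the median of all genes was then -0.58, and with upper-quartile scaling 4 were higher and 1 lower.

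At 8 h 6 of 9 fibrillar, 4 of 6 basement membrane, 4 of 6 beaded filament, 2 of 7 fibril-associated and 2 of 3 short-chain network chains were lower. Col5a1 had 1360 and 1253 CPM with PBS, 1190 and 1036 at 2 h, 521 at 4 h and 313 and 321 at 8 h (8 h against PBS -2.04 ± 0.17, edgeR adjusted p = 1.54e-08). Col5a3 had 1482 and 1340, 1450 and 1113, 428, and 232 and 248 CPM in the same order (-2.56 ± 0.22, adjusted p = 1.93e-08). At 2 h Col5a3 overlapped PBS and Col5a1 lay just below it, and at 4 h and 8 h both lay far below it. The 2 h levels depend on the scaling. Raw counts of Col5a3 were 9564 and 6555 at 2 h, of totals of 8069976 and 7126922. With PBS they were 11656 and 9824, of 6686420 and 6255934, so that by library totals alone the groups did not overlap. Col15a1 had 523 and 494, 723 and 523, 265, and 103 and 95.7 CPM (-2.36 ± 0.23), and Col6a3 1640 and 1609, 2121 and 1388, 681, and 414 and 485 CPM (-1.85). The most abundant chains had smaller fitted changes. Col3a1 went from 33304 and 30781 CPM with PBS to 13936 and 15702 at 8 h (-1.11 ± 0.20, adjusted p = 0.000182), and Col1a1 from 13434 and 10606 to 4457 and 5561 (-1.26 ± 0.28, adjusted p = 0.00145).

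Other chains lower at 8 h were Col4a6 (-3.01), Col8a2 (-2.45), Col6a6 (-2.26), Col4a3 (-1.55), Col8a1 (-1.40), Col4a4 (-1.27), Col14a1 (-1.01) and Col6a1 (-0.85). Col4a1 kept a level near or above PBS throughout, with 2063 and 1906 CPM with PBS, 3391 and 2716 at 2 h, 2143 at 4 h and 2431 and 2621 at 8 h. Its 2 h call (0.62 ± 0.18, edgeR adjusted p = 0.00789) was lost with library totals alone (0.10, adjusted p = 0.627), with upper-quartile scaling (0.0587) and without mix 2 h replicate 1 or PBS replicate 2 (0.0796 to 0.111), and at 8 h it did not pass the test (0.35, adjusted p = 0.154). Col4a2 passed at neither 2 h (0.53, adjusted p = 0.0656) nor 8 h (0.43, adjusted p = 0.161). The only gene higher at 8 h, Col6a4, had a mean of 2.63 CPM against 0.264 and lost its call without any 1 of the 4 libraries (adjusted p 0.0535 to 0.173). Col4a6 lost its call without PBS replicate 2 (0.0556).

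Col27a1 had a transient rise. Its levels were 22 and 32.5 CPM with PBS, 94.0 and 94.6 at 2 h, 126 at 4 h and 20.6 and 18.9 at 8 h. The change was 1.79 ± 0.19 at 2 h (edgeR adjusted p = 1.53e-07) and 2.21 ± 0.21 in the single library at 4 h, with an SE and an adjusted p (6.22e-08) that rest on the spread of the other groups, and at 8 h the gene did not pass the test (-0.46, adjusted p = 0.0895). Both 2 h libraries and the 4 h library were above all other libraries of this time course. Other genes higher at 2 h were low in level or modest in size: Col9a3 (3.86), Col6a4 (2.93), Col6a5 (1.62), Col4a6 (1.51), Col20a1 (1.12) and Col18a1 (0.68, adjusted p = 0.0294). Of these 6, all but Col9a3 lost the call with library totals alone (0.0839 to 0.585) and without at least 1 of the libraries mix 2 h replicate 1, mix 2 h replicate 2, PBS replicate 1 and PBS replicate 2 (0.0568 to 0.385). Col9a3 overlaps Tcfl5 on the opposite strand, so its reads are uncertain.

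**Figure D4:**
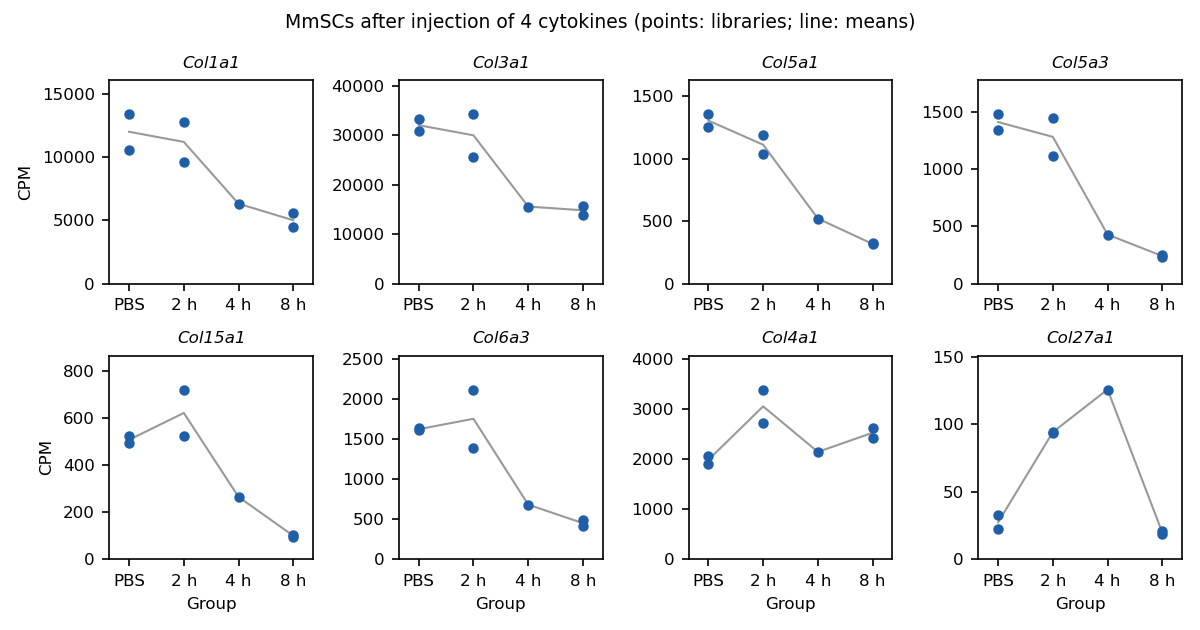
Levels of selected collagen genes in MmSCs with PBS and at 2, 4 and 8 h of the cytokine mix, as CPM with 1 point per library (n = 2, except 1 at 4 h) and lines through the means. Col5a1, Col5a3 and Col15a1 descend after 2 h, Col4a1 does not, and Col27a1 peaks at 2 h and 4 h.

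Collagen processing genes were lower at 8 h as well: 16 of 33 biosynthesis genes were lower and 6 higher, with a median of -0.44 against 0.07 over all genes, of which 12.9% were lower and 15.6% higher. Serpinh1, the collagen-specific chaperone, changed by -2.15 ± 0.21 (edgeR adjusted p = 1.74e-07), Colgalt2 by -4.11, Loxl2 by -1.81 and Pcolce, an enhancer of procollagen cleavage, by -1.09. At 2 h 7 were higher and 4 lower, where 20.5% and 18% of all genes were. Of 8 proteoglycans 4 were lower and 1 higher at 8 h, with Ogn at -2.19, Aspn at -2.15 and Lum at -0.74, and Dcn at 0.37. Of the 8 receptors tested 4 were lower and 2 higher, with Itga11 at -4.62, the collagen endocytic receptor Mrc2 at -2.04, Itga1 at 0.93 and the collagen receptor kinase Ddr2 at 0.56. The MmSC marker sum was 7656 to 8838 CPM with PBS and 6016 to 6163 CPM at 8 h, and 5 of 8 markers were lower. The endothelial sum went from 217 to 267 CPM to 55.0 to 59.8 CPM, with 1 of the 4 genes tested lower (Tek, -2.18), 0 higher and a list median of 1.84. The defining markers Pecam1 and Cdh5 were at most 0.89 CPM with PBS and 0.599 CPM at 8 h. The pericyte and smooth muscle sum went from 79.0 to 88.4 CPM to 6.35 to 9.39 CPM (3 of 6 lower) and the Schwann sum from 925 to 943 CPM to 255 to 284 CPM (1 of 4 lower). Their part in the collagen levels was not tested.

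Single cytokines, given for 2 h, were each compared with PBS. Col27a1 had 106 and 133 CPM with Il-1b (2.14 ± 0.19, edgeR adjusted p = 2.44e-08) and 77.3 and 75.9 with TNFa (1.49 ± 0.19, adjusted p = 1e-05). With Osm it had 32.2 and 26.4 CPM (0.11) and with Il-17A 25.2 and 21.4 CPM (-0.22), levels that overlapped those of PBS. Col15a1 was lower with all 4: Il-1b (200 and 343 CPM, -0.91), TNFa (266 and 258 CPM, -0.96), Osm (281 and 312 CPM, -0.78) and Il-17A (276 and 266 CPM, -0.91), against 523 and 494 with PBS. Every one of those 8 libraries was below both PBS libraries. With all 4 cytokines together for 2 h, neither library was below both PBS libraries in CPM, but this depends on the scaling. The TMM factors were 0.819 and 0.828 for the mix at 2 h and 1.179 and 1.175 for PBS. Mix 2 h replicate 2 had 3078 Col15a1 counts of 7126922, against 4110 of 6686420 and 3626 of 6255934 with PBS. By library totals alone it was thus below both. The Col15a1 call was lost without Il-1b replicate 1 (adjusted p = 0.0637) and, for Osm, without Osm replicate 1 (0.065).

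By count, Il-1b had 3 of 38 genes higher and 2 lower (19.5% and 13.7% of all genes), TNFa 1 higher and 2 lower (10.2% and 4.62%), Osm 1 higher and 8 lower (18.9% and 15.5%) and Il-17A 0 higher and 8 lower (2.84% and 2.11%). With library totals alone the Il-1b split was 2 higher and 9 lower. The medians were -0.14, -0.26, -0.31 and -0.60. With Osm, the genes lower included Col5a3 (-1.19), Col5a1 (-1.06), Col16a1 (-1.44), Col4a4 (-1.05) and Col4a2 (-0.80). With TNFa, Col8a1 was lower (-1.03, edgeR adjusted p = 0.025), and with Il-1b, Col5a1 (-0.46, adjusted p = 0.0357). Those 2 calls were lost without either PBS library and without TNFa replicate 1 (0.0754 to 0.201) or Il-1b replicate 1 (0.0557 to 0.223). With Osm, Col4a2 was lost without PBS replicate 1 or Osm replicate 2 (0.0517 to 0.146) and Col4a4 without PBS replicate 1 or Osm replicate 1 (0.0948 to 0.1). With Il-17A, Col3a1 had 16972 and 17459 CPM, both well below PBS (-0.90 ± 0.20, adjusted p = 0.0132), and Col4a2 (-0.82), Col5a3 (-0.84), Col4a1 (-0.70), Col5a1 (-0.67) and Col5a2 (-0.59) were also lower. All 8 Il-17A calls, that of Col15a1 included, were lost when any 1 of the 4 libraries was left out (adjusted p 0.0551 to 0.267). Differences between the cytokines were not tested.

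In mdx mice, where myofibres degenerate and regenerate repeatedly, the comparison is between ages. From 2.5 to 7 weeks 14 of 36 collagen genes tested rose and 6 fell (21.9% and 22.7% of all genes), with a median of 0.16 against -0.02 over all genes. Of 11 fibrillar chains 6 rose and 0 fell (median 0.66), of 5 beaded filament chains 3 rose and 1 fell, of 6 fibril-associated chains 2 rose and 3 fell (median -0.15), both multiplexins rose (Col15a1 by 0.52, lost without 2.5-week replicate 1 or 3 or 7-week replicate 2 or 3, adjusted p 0.0801 to 0.148), and of 6 basement membrane chains 1 fell. From 2.5 to 12.5 weeks 10 rose and 4 fell (13.9% and 12.4% of all genes). With library totals alone that split was 8 higher and 8 lower. From 7 to 12.5 weeks 0 rose and 3 fell (3.52% and 2.39%).

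Col8a1 had the tightest change, from 78.3, 103 and 72.9 CPM at 2.5 weeks to 596, 600 and 572 at 7 weeks and 513 and 562 at 12.5 weeks. It rose by 2.8 ± 0.14 by 7 weeks (edgeR adjusted p = 5.44e-09) and by 2.67 by 12.5 weeks (adjusted p = 2.63e-08). No library of the older ages came near those at 2.5 weeks. Col1a1 had 19498, 26462 and 19269, then 35482, 29875 and 37980, then 26650 and 18405 CPM (0.66 ± 0.16 by 7 weeks, adjusted p = 0.00387, and 0.05 by 12.5 weeks). Col1a2 followed it (0.66 by 7 weeks, adjusted p = 0.0027). Thus Col1a1 was highest at 7 weeks, while its 12.5-week libraries overlapped those at 2.5 weeks. Col3a1 did not pass the test at any age, with 55775, 69847 and 51404, then 66538, 60244 and 72043, then 57269 and 46976 CPM (0.17 by 7 weeks, adjusted p = 0.326, and -0.35 from 7 to 12.5 weeks, adjusted p = 0.201). Its 2.5-week libraries overlapped both other ages, while both 12.5-week libraries lay below all 7-week ones.

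Further chains that rose came from several classes. Col5a3 had 421, 732 and 565, then 1356, 1311 and 1630, then 1025 and 923 CPM (1.32 by 7 weeks and 0.77 by 12.5 weeks). Col12a1 had 93.9, 142 and 120, then 301, 239 and 304, then 199 and 147 CPM (1.25 by 7 weeks). Both were above 2.5 weeks in every 7-week library. Col16a1 rose by 1.22, Col11a1 by 1.71, Col27a1 by 1.61, Col24a1 by 2.97 and Col6a3 by 0.91 by 7 weeks. Col18a1 had 34.2, 58.7 and 62.7, then 122, 124 and 159, then 220 and 161 CPM (1.38 by 7 weeks and 1.88 by 12.5 weeks, edgeR adjusted p = 2.48e-05). Col6a5, a minor filament chain, had 0.589, 3.91 and 5.94, then 13.9, 16.5 and 20.5, then 45.3 and 34.1 CPM (2.27 and 3.52). In Col18a1 and Col6a5 every library of a later age was above every library of the earlier ones. The 12.5-week call of Col5a3 was lost without mdx 12.5-week replicate 1 (adjusted p = 0.0879).

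Chains that fell by 7 weeks were Col9a3 (-3.30, overlapping Tcfl5), Col22a1 (-2.20), Col4a3 (-1.91), Col6a6 (-1.41), Col23a1 (-0.95) and Col14a1 (-0.37). Col4a3 had 32.0, 20.7 and 30.5, then 9.19, 6.45 and 6.21, then 11.6 and 12.9 CPM. Col6a6 had 124, 171 and 116, then 51.2, 45.9 and 57.7, then 85.3 and 53.6 CPM. All older libraries of these 2 genes were below those at 2.5 weeks, though the 12.5-week calls were lost without mdx 12.5-week replicate 1 for Col4a3 (edgeR adjusted p = 0.0603) and replicate 2 for Col6a6 (0.0854). Col22a1, Col23a1 and Col14a1 lost their 7-week calls without mdx 7-week replicate 1 and at least 1 other library of 2.5-week replicate 1 or 2 or 7-week replicate 2 or 3 (0.0678 to 0.131). Col4a1, Col4a2, Col5a1, Col5a2 and Col6a1 did not pass the test by 7 weeks. Between 7 and 12.5 weeks the 3 called genes were Col24a1 (-3.36, adjusted p = 0.0184), Col12a1 (-0.70, adjusted p = 0.038) and Col5a1 (-0.52, adjusted p = 0.0483). That count was 0 without mdx 7-week replicate 1 or 12.5-week replicate 2, and 1 without 12.5-week replicate 1.

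**Figure D5:**
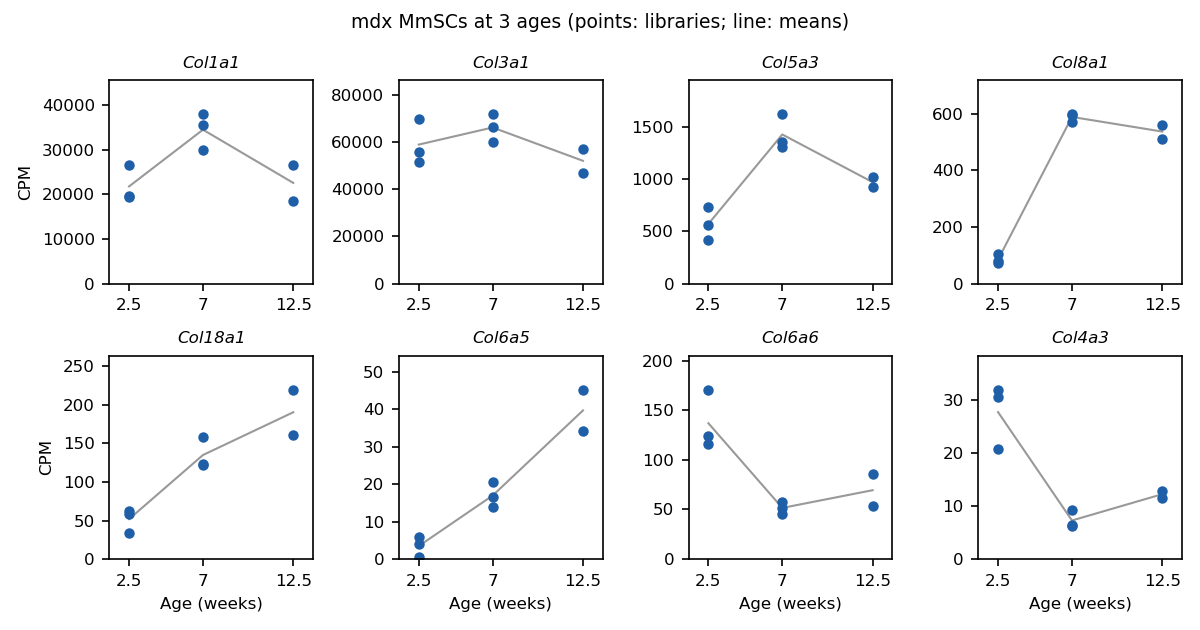
Levels of selected collagen genes in mdx MmSCs against age in weeks, as CPM with 1 point per library (n = 3, 3 and 2) and lines through the means. Col8a1 stands higher at 7 and 12.5 weeks, Col1a1 and Col3a1 have their highest means at 7 weeks, and Col4a3 is lower at both older ages.

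Processing genes rose broadly by 7 weeks: 21 of 33 biosynthesis genes were higher and 2 lower, with a median of 0.77, where 21.9% and 22.7% of all genes were. The cross-linking enzymes Lox (1.95) and Loxl3 (1.86) and the chaperone Fkbp10 (1.27) were higher, and Pcolce2 was lower (-1.71). By 12.5 weeks 14 were higher and 3 lower (13.9% and 12.4% of all genes), with Loxl4 at 1.94 and Lox at 1.55. Of 8 proteoglycans 4 rose by 7 weeks and 7 by 12.5 weeks, with Bgn at 1.95 and 1.71, Fmod at 2.63 and 3.59 and Ogn at 1.01 and 1.36. Of the 8 receptors 3 rose and 4 fell by 7 weeks, with Mrc2 at 1.07, Itga11 at -1.58 and Ddr2 at -0.97. Tenocyte markers, a list that shares Fmod with the proteoglycans, went from a sum of 360 to 751 CPM at 2.5 weeks to 3762 to 4460 at 7 weeks and 4394 to 4631 at 12.5 weeks. Of the 5 tested 4 rose, while the defining factor Scx was at 0 at both older ages. The MmSC marker sum was 7609 to 10636, 7024 to 7448 and 9732 to 9853 CPM, and the endothelial sum 380 to 415, 49.5 to 58.6 and 77.9 to 105 CPM. The pericyte and smooth muscle sum was 72.1 to 111, 181 to 238 and 171 to 187 CPM, with Acta2 higher by 4.93 by 7 weeks and 3.72 by 12.5 weeks. The satellite cell sum was 36.9 to 58.3, 515 to 542 and 280 to 347 CPM, with Vcam1 higher by 4.36 and 3.73 and Pax7 at 0 at 2.5 and 12.5 weeks. The Schwann sum was 835 to 1064, 386 to 419 and 573 to 597 CPM. The part of these shifts was not tested.

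The Il6RD reporter compares Thy1.1+ with Thy1.1- MmSCs 12 h after cardiotoxin. Il6 was at 75.3, 52.7 and 290 CPM in the Thy1.1+ libraries and at 43.9, 22 and 67.2 CPM in the Thy1.1- libraries of the same replicate numbers. Without a replicate block edgeR called 0 of 28 collagen genes and 0.0% of all genes, 0 at an unadjusted p under 0.05 among the 28, and DESeq2 called 0 as well. The labels do not tie same-numbered libraries to each other. In these counts their deviations correlated at 0.36 to 0.62 over 3 pairs, and on that basis the replicate number was treated as a pairing. With the replicate number as a block 11 of 28 collagen genes were lower in Thy1.1+ cells and 0 higher (5.81% and 4.93% of all genes, 10.7% in either direction), with a median of -0.43. The blocked calls depend on this inferred pairing.

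Col3a1 had 7393, 14846 and 18583 CPM in Thy1.1- and 3553, 5537 and 11928 CPM in Thy1.1+ libraries of replicates 1, 2 and 3 (blocked -1.04 ± 0.12, edgeR adjusted p = 0.000151). Col1a1 had 4712, 7146 and 7425 against 2027, 2423 and 5666 CPM (-1.06 ± 0.16, adjusted p = 0.00107). Col5a1 had 237, 419 and 551 against 126, 203 and 337 CPM (-0.89 ± 0.10, adjusted p = 0.000135). In all 3 genes the Thy1.1+ library was lower in each pair, while the groups as a whole overlapped. Col1a2 (-0.83), Col14a1 (-0.78), Col4a5 (-1.13), Col4a4 (-1.10), Col4a3 (-0.81), Col6a6 (-0.72), Col6a2 (-0.62) and Col5a2 (-0.49) were also lower. Col4a1 had 1806, 2002 and 2557 against 1620, 1889 and 2742 CPM and did not pass the test (-0.05). In the same blocked fit 5 of 8 MmSC markers and 9 of 33 biosynthesis genes were lower, where 5.81% of all genes were. The MmSC marker sum was 3395 to 5780 CPM in Thy1.1+ and 4362 to 7315 CPM in Thy1.1- libraries, and its part was not tested.

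Il1b-KO and Il1b-WT MmSCs 1 day after injury differed in 1 of 31 collagen genes, where 1.12% of all genes were higher and 0.0909% lower. Col5a3 had 427 and 313 CPM in Il1b-WT and 638, 585 and 583 in Il1b-KO libraries (0.70 ± 0.13, edgeR adjusted p = 0.031), a call lost without any 1 of the Il1b-KO libraries (0.125 to 0.174). Col4a2 had 662 and 294 CPM in Il1b-WT and 1183, 1032 and 1167 in Il1b-KO libraries and did not pass the test (1.24, adjusted p = 0.058). Il1b-WT replicate 2 had the lower level of both genes. It stood apart in the basement membrane pair, with 1960 counts of Col4a2 against 8221 of Col4a1. Il1b-WT replicate 1 had 3519 against 5006, and Il1b-KO replicate 1 had 6206 against 6770. The groups of Col5a3 and Col4a2 did not overlap, while those of Col1a1, Col3a1 (0.07) and Col12a1 did.

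In whole tibialis anterior at day 7, anti-Cxcl5 against IgG gave 0 called collagen genes of 36 by edgeR (0.03% of all genes higher and 0.0% lower) and 0 by DESeq2, with 4 at an unadjusted p under 0.05, 3 higher and 1 lower. Col1a1 had 4447, 3965 and 5785 CPM with IgG and 5244, 4966 and 5235 with anti-Cxcl5 (0.12 ± 0.13). Col3a1 had 7576, 7676 and 8463 CPM with IgG and 7703, 7394 and 8684 with anti-Cxcl5 (0.00 ± 0.10). Both genes overlapped between the groups.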

How the data were processed

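RNA-seq counts per gene of 70 libraries were analysed in 6 experiments, grouped by the labels. Per the submitters' processing notes, the authors used STAR 2.7.3a and featureCounts with mm10 (GRCm38), and the deposited values are raw counts. Totals per library (2252373 to 8408842) limit what low genes can show. Each experiment was fitted across all its genes with edgeR 4.0.16 in R 4.3.3 (low genes removed by filterByExpr at min.count 10, TMM factors, 1 mean per group, quasi-likelihood F-test, Benjamini-Hochberg adjustment, called under 0.05), which tested 11975 to 16374 genes. Each SE was obtained from the size of the log2 change and its F statistic, as their quotient after taking the root of F. The fit was checked on simulated counts. Alternatives were DESeq2 1.42.0, upper-quartile scaling, no count filter, a replicate block, only the groups compared, leaving out each replicate, and library totals alone, the last chosen after seeing the data. Replicate numbers were treated as a pairing only in the reporter experiment, where deviations of same-numbered libraries correlated at 0.36 to 0.62 and the blocked values are given. That pairing was inferred from the counts, not from the labels. Named in each comparison were up to 10 called collagen genes in each direction with the largest change and 14 chains of the abundant trimers, and up to 4 genes of each pathway list with the smallest p. Genes were matched by symbol, and figures were drawn with matplotlib 3.10.9. Members, lists and tests were chosen with earlier results of these data known. Groups of Osm with another cytokine entered the cytokine fit but no test.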

Additional observations from a re-analysis of the deposited data

Results flagged for a closer look

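Some collagen genes had a different injury response in MmSCs than in MuSCs or CD31+ cells, by the interaction test of edgeR. The difference is the log2 change in MmSCs minus that in the other cells. CD45+ cells were not tested in this way. Against MuSCs the difference was -4.31 for Col13a1 (adjusted p = 0.0486), -3.89 for Col6a3, -3.37 for Col14a1 (0.0261), -3.09 for Col1a2 (0.0461), -3.07 for Col1a1 (0.0426), -3.05 for Col8a1 and -1.43 for Col5a2 (0.0329). With library totals alone 3 of 37 were lower and 2 higher. Against CD31+ cells it was -4.03 for Col1a1 (0.0464), -3.99 for Col6a6 (0.0338), -3.73 for Col6a1, -3.03 for Col6a2 (0.0343), -2.92 for Col18a1, -2.86 for Col15a1, -2.80 for Col5a3 (0.022), -2.18 for Col4a3 (0.044), -1.31 for Col4a1, -1.29 for Col4a2 and 1.89 for Col8a1 (0.0346). Levels in the other cells were low for several of these genes: Col13a1 and Col14a1 were at most 8.06 CPM in any MuSC library, and Col1a1, Col6a6, Col6a2, Col5a3 and Col4a3 at most 9.04 CPM in any CD31+ library. Col6a1 had at most 58 counts in any CD31+ library. In resting MuSCs Col6a3 had 27, 0 and 3 counts and Col8a1 7, 19 and 23. The calls of Col13a1, Col14a1, Col1a2, Col1a1 and Col5a2 against MuSCs were lost under 5 to 11 of the 12 omissions of 1 library (adjusted p 0.0513 to 0.537), MmSC resting replicates 1 and 2 and MuSC resting replicate 1 among them for all 5. Against CD31+ cells those of Col1a1, Col6a6, Col6a2, Col5a3, Col4a3 and Col8a1 were lost under 6 to 10 of the 12 (0.0502 to 0.298), MmSC resting replicates 1 and 2 among them for all 6. No group had 4 or more libraries, so no library was tested as an outlier within its group.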

How the results depend on the processing

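Over the 252 results for named genes, 2869 alternative values gave 2492 with the same direction and call, 372 that lost the call, 5 that gained it and 0 reversals. The cause of the lost calls was not tested. Counts of called collagen genes that moved were as follows. For the mix at 2 h the count was 5 with upper-quartile scaling and 4 to 7 without 1 library, with 4 without either PBS library. For Il-1b it was 11 with library totals, 11 with no filter and 1 to 5 without 1 library (2 without PBS replicate 1, 1 without Il-1b replicate 1). For TNFa it was 6 with no filter and 5 with only the groups compared. For Osm it was 17 with library totals and 15 with no filter. For Il-17A it was 17 with only the groups compared and 0 without any 1 library. In injured CD31+ cells it was 10 with no filter and 2 to 4 without 1 library (2 without CD31+ resting replicate 1 or injured replicate 1 or 2). In injured CD45+ cells it was 9 with no filter, and in MuSCs 11 to 17 without 1 library. The interaction with MuSCs gave 4 by DESeq2, 4 with upper-quartile scaling, 11 with no filter and 2 to 5 without 1 library, and that with CD31+ cells 5 to 11 without 1 library. The reporter gave 5 with no filter and 11 with the replicate block, and whole muscle 1 with no filter. For mdx at 12.5 against 7 weeks the count was 5 by DESeq2, 5 with library totals, 9 with no filter, 14 with only the groups compared and 0 to 3 without 1 library. At 12.5 against 2.5 weeks it was 8 to 16 (8 without mdx 12.5-week replicate 1). For Il1b-KO it was 3 by DESeq2, 8 with no filter, 4 with the replicate block and 0 to 7 without 1 library (0 without any Il1b-KO library, 7 without Il1b-WT replicate 1, 4 without replicate 2). Outside the reporter experiment deviations of same-numbered libraries did not go together (median correlation -0.04 to 0.03).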

Other observations

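The groups given Osm with a second cytokine for 2 h entered no comparison. Col27a1, which was higher with Il-1b or TNFa alone, had 102 and 116 CPM with Osm and Il-1b, 92.6 and 93.7 CPM with Osm and TNFa, and 30.3 and 40.7 CPM with Osm and Il-17A, against 22 and 32.5 CPM with PBS. Col15a1 had 239 and 235, 268 and 322, and 182 and 290 CPM in the same order, all below its PBS values of 523 and 494. Col5a3, a regulatory fibrillar chain, had 681 and 624, 702 and 861, and 481 and 791 CPM against 1482 and 1340 with PBS. Col1a1 had 8009 and 18365 CPM in the 2 libraries of Osm with Il-1b, a wider spread than in any other cytokine group.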
